A study of Haplochromis burtoni and Eretmodus cyanostictus and Lepidiolamprologus attenuatus with 30 samples.

Results

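The intestine of Lepidiolamprologus attenuatus was set against those of Haplochromis burtoni (also called Astatotilapia burtoni) and Eretmodus cyanostictus, and genes were sought whose level differed from both species in the same direction. L. attenuatus contributed 10 of the 30 RNA sequencing libraries of the series, and H. burtoni and E. cyanostictus contributed 10 each. Each species was represented by 2 fish, and each intestine had been cut crosswise into 5 equally long sections, numbered from the front (1) to the back (5), with a separate library of total RNA from every section. The labels give no treatment, age, sex, diet or rearing condition for any fish. The fish are numbered 6 and 7 in L. attenuatus, 1 and 2 in H. burtoni, and 3 and 4 in E. cyanostictus. For the whole intestine, the counts of the 5 sections of each fish were summed.

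The 3 species are cichlids of Lake Tanganyika and its surroundings with different feeding habits. L. attenuatus is a predator of small animals, H. burtoni is a generalist, and E. cyanostictus scrapes algae from rocks. In fishes the anterior intestine is known for the uptake of lipids and the products of digestion, and more posterior parts for the uptake of whole proteins. The deposited table lists genes as numeric IDs without symbols, so gene functions are not described here, and the identity of the tissue was not checked against marker genes.

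The summed counts on genes were 39593469 and 46443362 in L. attenuatus fish 6 and 7, and ranged from 40841139 to 46527681 in the 4 other fish. More than 3 counts were found at 25039 and 25274 genes in the L. attenuatus fish and at 25315 to 26140 genes in the others. Reads on no annotated gene made up 6.15% to 8.69% of the counts of a L. attenuatus library and 6.75% to 16.5% of a library of the other species. A common set of gene IDs was used to count the reads of the 3 species, and unaligned reads are not in the table. Between species, a lower level of a transcript therefore cannot be told apart from a poorer alignment of its reads or their alignment at several places. Nor can fewer cells of a type be told apart from less RNA per cell.

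Over the whole intestine, L. attenuatus was higher than both other species at 1057 genes and lower than both at 920 genes. Among 24792 genes tested these are 4.26% and 3.71%. A gene was counted when L. attenuatus minus H. burtoni and L. attenuatus minus E. cyanostictus each had an adjusted p under 0.05 and the same sign (quasi-likelihood F-test of edgeR with Benjamini-Hochberg adjusted p, 2 fish per species). Both comparisons use the same L. attenuatus fish. A further 104 genes differed from both species in opposite directions, with L. attenuatus between them, and are not counted. The contrast of L. attenuatus with the mean of the 2 other species was passed by more genes, 2694 higher (10.9%) and 2413 lower (9.73%). A gene can pass it by differing from 1 species only. Of these, 1637 of the higher and 1493 of the lower genes did not meet the rule for both species. By the same rule and among the same 24792 genes, H. burtoni differed from both others at 1382 genes (904 higher, 478 lower) and E. cyanostictus at 1450 (876 higher, 574 lower). These 3 counts come from the same fish, and their difference was not tested.

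The number of genes called changed strongly when single fish were left out. Each such fit leaves 1 fish in a species. An effect of having fewer fish and an effect of the particular fish left out cannot be told apart here. Leaving out L. attenuatus fish 6 or 7 lowered the number of genes different from both species to 419 and 258, against 1977 with all fish, and leaving out H. burtoni fish 1 or 2 lowered it to 276 and 236. Without E. cyanostictus fish 3 or 4 it was 2282 and 1694. The genes called without fish 6 included 363 of the original ones, and those called without fish 7 included 234. The share of higher genes among the calls was 53.5% with all fish. Higher genes prevailed without either L. attenuatus fish, and lower genes without either H. burtoni fish. Without E. cyanostictus fish 3 the directions were nearly even, and without fish 4 lower genes prevailed. The prevailing direction thus depended on the fish left out, and was the same for both fish of L. attenuatus and for both of H. burtoni.

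**Figure D1:**
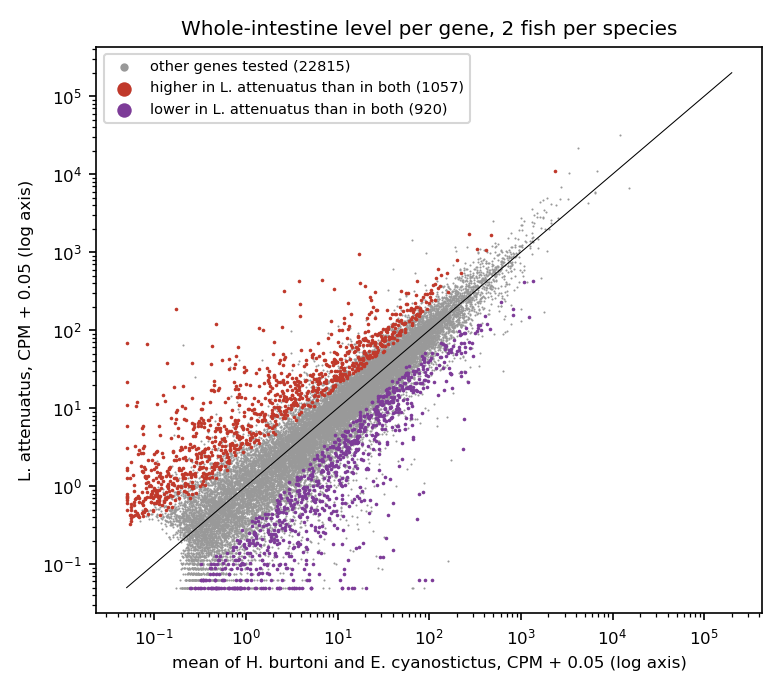
Mean CPM (counts scaled to library size) of each tested gene in L. attenuatus (vertical axis) against the mean of H. burtoni and E. cyanostictus (horizontal axis), on log axes with 0.05 CPM added. Red and purple points are the 1057 and 920 genes called higher and lower than both species. They lie on either side of the line of equal levels at every level of expression, and the row of points at the bottom and the column at the left are genes with few or no counts on 1 side.

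The sizes of the differences describe genes that were called on the same values. With 2 fish per species, large estimates pass the rule more easily, so the medians below are raised by the choice. For each gene the smaller of its 2 absolute log2 ratios of mean CPM was taken. A species without any count at a gene was set to the bound given by 3 counts per fish, and other low counts were left as they are. The median of this smaller ratio was 2.15 (a 4.44-fold difference) for the 1057 higher genes and 2.01 (4.04-fold) for the 920 lower genes. By the log2 fold changes of edgeR, which carry no such bound, the medians were 2.15 and 2.08. Over all genes tested the median of the smaller absolute log2 fold change of edgeR was 0.39. At least an 8-fold difference from both species was seen at 309 of the higher genes (29.2%) and at 220 of the lower genes (23.9%). At least a 2-fold difference from both was seen at 974 of the higher and 864 of the lower genes.

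Some genes were all but absent on 1 side. At 94 of the higher genes none of the 4 fish of the other species exceeded 3 counts, and at 15 of these no read was found in any of them. At 167 of the lower genes neither L. attenuatus fish exceeded 3 counts, and 69 of these had no count at all in L. attenuatus. Over all genes tested, 738 genes stood at or under 3 counts in both L. attenuatus fish and 100 in all 4 other fish. These numbers cannot be compared between directions, because they refer to 2 fish in one case and to 4 in the other. A gene this low in all 4 other fish passed the filter on low counts only through the L. attenuatus fish. That most of these 100 genes were called higher is thus largely fixed by the filter and is no further result. The 2 higher gene IDs named below entered in this way. Likewise, a gene this low in both L. attenuatus fish passed only through the other species, and the 2 lower gene IDs named below did so.

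Genes of all levels were involved. Among the 2003 genes averaging 100 CPM or more over the 6 fish, 60 (2.996%) were higher and 64 (3.195%) lower in L. attenuatus than in both species. Among the 5024 genes under 1 CPM the numbers were 268 (5.33%) and 160 (3.18%). The median level of the higher genes was 11.1 CPM in L. attenuatus, 1.27 CPM in H. burtoni and 1.26 CPM in E. cyanostictus. For the lower genes the medians were 1.18 CPM in L. attenuatus, 8.46 CPM in H. burtoni and 8.88 CPM in E. cyanostictus. In both lists, which were chosen for a difference from both species, the medians of H. burtoni and E. cyanostictus lay close together.

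The 4 gene IDs with the largest differences from both species are given in full. They were the first 2 in each direction by the smaller log2 fold change, among genes with at least 20 CPM on the higher side (412 higher and 268 lower genes), and are the most extreme cases by this measure. Gene ID 109195113 reached 52.2 CPM in L. attenuatus fish 6 and 85.5 CPM in fish 7, and had no count in any of the 20 libraries of H. burtoni and E. cyanostictus. Taking 3 counts per fish as the limit of detection, its mean of 68.8 CPM ± 23.6 (SD, n = 2) was at least 915-fold higher than in H. burtoni and at least 1145-fold higher than in E. cyanostictus. Its edgeR adjusted p was 0.0046 against H. burtoni and 0.00384 against E. cyanostictus. It was found along the whole gut of L. attenuatus, at 54.3, 55.7, 59.0, 45.4 and 43.7 CPM in sections 1 to 5 of fish 6 and at 109.7, 126.8, 103.8, 53.7 and 32.1 CPM in fish 7. The fish differed most in the 3 anterior sections, and in the most posterior section fish 7 was the lower one.

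Gene ID 100706417 was also without a count in the other species, but in L. attenuatus it was found from section 3 backwards only. Over the whole intestine it stood at 31.0 and 11.96 CPM in fish 6 and 7 (mean 21.5 CPM ± 13.5, SD, n = 2), at least 286-fold higher than in H. burtoni and at least 358-fold higher than in E. cyanostictus. The edgeR adjusted p-values were 0.0103 against H. burtoni and 0.00838 against E. cyanostictus. Sections 1 and 2 had no count in either L. attenuatus fish. Section 3 held 85 counts (10.6 CPM) in fish 6 and 3 counts (0.39 CPM) in fish 7, section 4 was at 52.8 and 32.1 CPM, and section 5 at 84.5 and 25.05 CPM. In fish 6 the level was thus highest in section 5, and in fish 7 in section 4.

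Gene ID 100699793 was all but missing from L. attenuatus, with 0 counts in fish 6 and 1 count in fish 7. Its level was 49.0 CPM in H. burtoni fish 1, 142.8 CPM in H. burtoni fish 2, 50.2 CPM in E. cyanostictus fish 3 and 120.1 CPM in E. cyanostictus fish 4. The pooled level of these 4 fish was 7261 times that of L. attenuatus, with a 95% exact interval of 1303 to 286816 that covers counting error only. The single count is under the detection limit of 3 counts per fish, so the size of this ratio is imprecise. The edgeR adjusted p-values were 0.00481 against H. burtoni and 0.00405 against E. cyanostictus. Within the other species its position varied from fish to fish. It was highest in section 3 of both H. burtoni fish (101.4 and 291.96 CPM), in section 4 of E. cyanostictus fish 3 (164.3 CPM) and in section 1 of E. cyanostictus fish 4 (329.8 CPM). The single read of L. attenuatus was in section 2.

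Gene ID 102076440 likewise had 0 counts in L. attenuatus fish 6 and 1 count in fish 7, which lay in section 3. Both H. burtoni fish (169.6 and 106.8 CPM) and both E. cyanostictus fish (64.1 and 87.8 CPM) expressed it. The pooled level of these 4 fish was 8183 times that of L. attenuatus (95% exact interval 1468 to 323212, counting error only), with edgeR adjusted p-values of 0.00184 and 0.00142 against H. burtoni and E. cyanostictus. Here too the single count is under the detection limit of 3 counts per fish, so the size of the ratio is imprecise. The gene was found in every section of all 4 fish, between 72.6 and 205.1 CPM in H. burtoni and between 27.3 and 161 CPM in E. cyanostictus. The 4 named IDs were chosen for the largest differences in these same counts. How often they kept their call is therefore no further support for them. Of the 4 IDs, 3 kept their call against both species in each of the 16 alternatives tried, whereas ID 100706417 lost it without H. burtoni fish 1 (edgeR adjusted p = 0.0573), without H. burtoni fish 2 (edgeR adjusted p = 0.0621) and at the stricter threshold of 0.01.

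**Figure D2:**
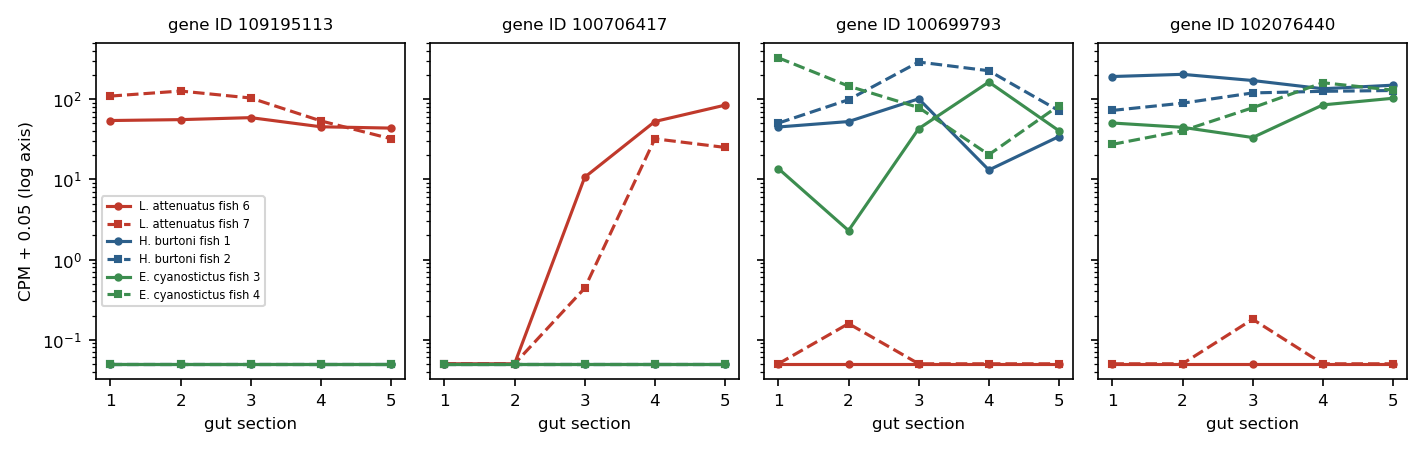
CPM (log axis, 0.05 added) of the 4 gene IDs in sections 1 to 5, with 1 line per fish. IDs 109195113 and 100706417 are at 0 in all H. burtoni and E. cyanostictus libraries, the second appearing in L. attenuatus from section 3 onwards. IDs 100699793 and 102076440 have a single read each in L. attenuatus and are present along the gut of the other species.

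The differences found in the summed counts were next followed through the 5 sections. Because the sections are the parts of those sums, this describes where the difference lay and is no further test of it. At 720 of the 1057 higher genes (68.1%) both L. attenuatus fish were above all 4 other fish in every section, against 4.99% of all genes tested. At 564 of the 920 lower genes (61.3%) both were below all 4 others in every section, against 3.68% of all genes. In the summed counts, the groups did not overlap at any of the 1977 genes, whereas over all genes tested the L. attenuatus fish were above all others at 20.3% and below them at 19.0%. In single sections, between 86.8% (section 1) and 92.8% (section 3) of the higher genes were above all 4 other fish. Over all genes tested this share lay between 16.2% (section 3) and 19.2% (section 5). Between 84.3% (section 1) and 90.0% (section 5) of the lower genes were below all 4 other fish. The share over all genes was between 14.5% (section 4) and 17.7% (section 5). At 4 higher genes both L. attenuatus fish fell below all other fish in some section, and none (0) of the lower genes did the opposite. Over all genes tested, 65.0% had no section with both fish below all others, and 64.7% none with both above. That the called genes seldom went the opposite way largely follows from their choice on the sums.

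**Figure D3:**
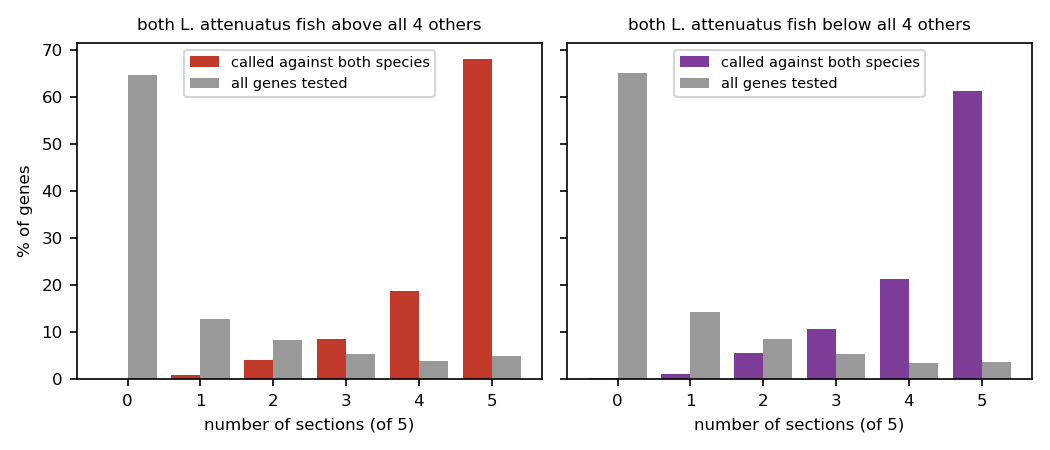
Share of genes by the number of sections in which both L. attenuatus fish lie above (left) or below (right) all 4 other fish. Coloured bars are the genes called against both species in the summed counts, and grey bars are all 24792 genes tested. Of the called genes 68.1% and 61.3% reach all 5 sections.

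Taken as a list, the 1057 higher genes held 5.46% and 5.44% of the gene counts of L. attenuatus fish 6 and 7, against 1.57% to 1.63% in the 4 other fish. The 920 lower genes held 0.911% and 0.780% in L. attenuatus, against 3.44% to 3.82% in the others. Both lists were chosen on these same counts, so this separation follows from the choice and is no further result. Along the gut of L. attenuatus, the share of the lower list was smallest in front, with 0.528% and 0.608% in section 1 of fish 6 and 7, and larger behind, with 1.22% and 1.07% in section 5. In the other species the share was between 2.60% and 3.63% in section 1 and between 3.74% and 4.13% in section 5. The mean share in the other fish was 5.501, 5.23, 4.48, 3.39 and 3.43 times that in L. attenuatus in sections 1 to 5. The difference in share, L. attenuatus minus the other fish, was -2.55, -2.63, -2.98, -2.70 and -2.79 percentage points in the same order. As a ratio the deficit of L. attenuatus was larger in front, and as a difference it was smallest in section 1, so its course along the gut depended on the measure.

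The share of the higher list in L. attenuatus lay between 5.40% and 6.42% in sections 1 to 3, at 4.66% and 5.02% in section 4, and at 3.96% and 4.10% in section 5. Much of this slope came from 1 gene, which alone held 18.7% of the list's counts in L. attenuatus. Without it the list held between 3.95% and 4.86% of the counts in every L. attenuatus section. The ratio of L. attenuatus to the other fish was then 3.29, 3.45, 3.58, 3.27 and 2.81 in sections 1 to 5.

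**Figure D4:**
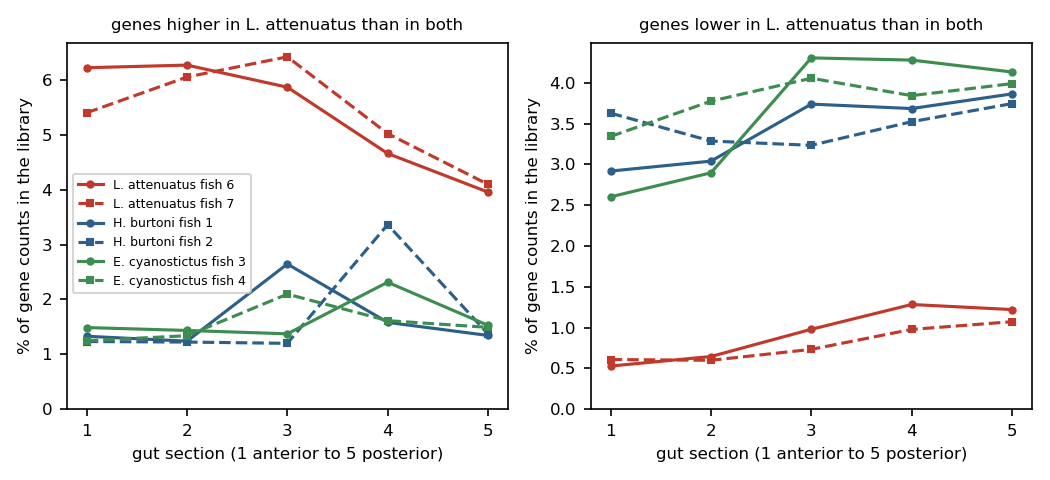
Percentage of the gene counts of each library held by the genes called higher (left) and lower (right) in L. attenuatus than in both species, by section, with 1 line per fish. The lists were chosen for a difference between L. attenuatus and both species in the summed counts. The gap between the L. attenuatus fish and the other 4 therefore follows from the choice. The peaks of H. burtoni and E. cyanostictus in sections 3 and 4 on the left come from 1 abundant gene.

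That gene, the most abundant of the higher ones and singled out after its values were seen, had a different position in the gut of L. attenuatus. Over the whole intestine L. attenuatus fish 6 had 11729 CPM and fish 7 had 10463 CPM, while H. burtoni had 3461 CPM in fish 1 and 3448 CPM in fish 2, and E. cyanostictus had 1295 CPM in fish 3 and 1152 CPM in fish 4. The log2 fold change was 1.68 over H. burtoni (edgeR adjusted p = 0.0304) and 3.18 over E. cyanostictus (edgeR adjusted p = 0.0072). In L. attenuatus it was abundant from the anterior end, with 25404, 19487, 12748, 3148 and 48.1 CPM in sections 1 to 5 of fish 6 and 13388, 19584, 16988, 2352 and 39.9 CPM in fish 7. In sections 1 and 2 of the other species it did not exceed 19.2 CPM. There it was concentrated in 1 section of each fish, though H. burtoni fish 1 also had 2494 CPM in section 4. H. burtoni had 14376 CPM in section 3 of fish 1 and 23352 CPM in section 4 of fish 2. E. cyanostictus had 7909 CPM in section 4 of fish 3 and 5560 CPM in section 3 of fish 4. In sections 3 and 4 the L. attenuatus fish therefore overlapped with the others, and the difference lay in the anterior sections.

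The section in which a gene reached its highest CPM was compared with all genes tested. The calls used the sums of the sections, to which a peak contributes, so its position is not independent of the calls. In L. attenuatus, 35.8% of the higher genes peaked in section 1 in fish 6 and 22.7% in fish 7, against 25.4% and 20.6% of all genes. In section 1 the higher genes also stood above all genes in H. burtoni fish 1 (26.5% against 21.3%) and fish 2 (23.6% against 19.3%). The same held in E. cyanostictus fish 3 (29.4% against 22.0%), though not in fish 4 (30.7% against 31.5%). A gene without a count in a fish was placed in section 1. This applies in all 4 other fish to 15 of the 1057 higher genes, and in both fish of at least 1 other species to 55. Genes without a count in only 1 fish of a species were placed there too and were not counted. The section 1 shares of the higher genes in the other species are therefore not fully comparable with those of all genes. In L. attenuatus, 69 of the 920 lower genes had no count in either fish. In all, 167 of the lower genes did not exceed 3 counts in either fish, against 738 of the 24792 genes tested. The shares of the lower genes in L. attenuatus are therefore not fully comparable with those of all genes. In section 2, 9.02% and 8.26% of the lower genes peaked in fish 6 and 7, against 11.9% and 17.1% of all genes. In section 2 the lower genes also stood below all genes in H. burtoni (14.3% against 19.1% in fish 1, 14.8% against 17.9% in fish 2) and in E. cyanostictus fish 3 (10.9% against 17.4%), though not in fish 4 (14.5% against 13.7%). In section 5 of L. attenuatus, 29.5% and 37.4% of the lower genes peaked, against 27.9% and 30.9% of all genes. The lower genes also stood above all genes there in H. burtoni, at 22.7% against 20.1% (fish 1) and 35.1% against 27.6% (fish 2). For E. cyanostictus the shares were 20.3% against 18.7% in fish 3 and 21.3% against 16.6% in fish 4. The 2 L. attenuatus fish differed by as much as the lists differed from all genes in several sections. An example is section 4, where 10.03% and 20.1% of the higher genes peaked against 17.7% and 15.8% of all genes. In no section did the higher genes depart from all genes in both L. attenuatus fish by more than these fish differed from each other.

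**Figure D5:**
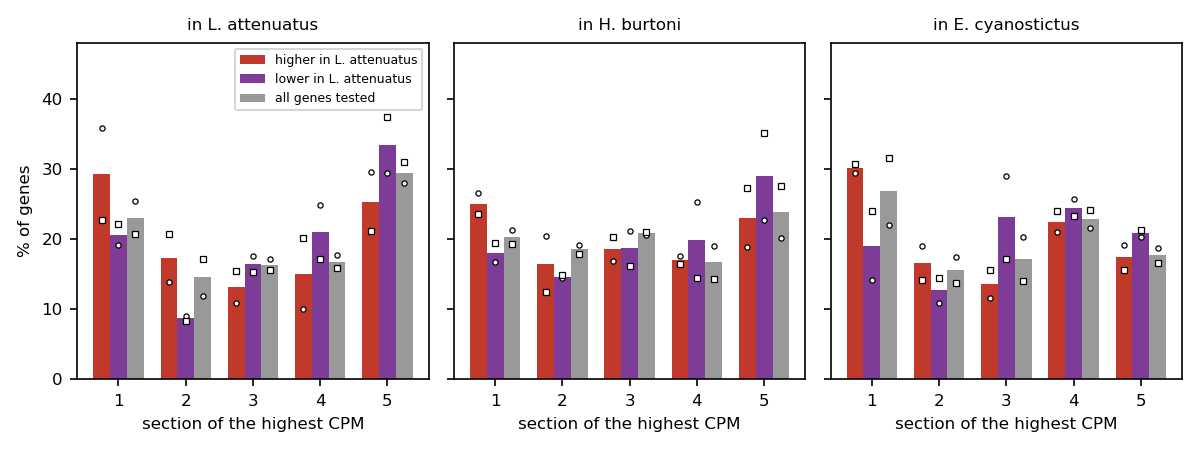
Share of genes with their highest CPM in each section, in L. attenuatus, H. burtoni and E. cyanostictus. Bars are means of the 2 fish of the species and symbols are single fish (circles for the lower-numbered fish, squares for the other). In section 2 the lower genes stand below all genes in both L. attenuatus fish, and likewise in both H. burtoni fish and E. cyanostictus fish 3.

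Whether the difference of L. attenuatus varied along the gut was tested directly in the 30 libraries. The change of each section from section 1 in L. attenuatus was set against the mean of the same changes in H. burtoni and E. cyanostictus. This profile differed at 154 of 22430 genes (0.687%, F-test of 4 coefficients in edgeR at an adjusted p under 0.05), and 1971 genes (8.79%) had an unadjusted p under 0.05. This fit took the 5 sections of a fish as independent libraries, although they come from the same animal. When sections were compared only within an intestine, by taking the fish as a block, 936 genes (4.17%) were called, including all 154. Among the 936, the departure from section 1 was largest in section 5 at 657 genes, in section 4 at 218, in section 3 at 46 and in section 2 at 15. Every departure was measured from section 1, and the same split was not made over all genes tested. These numbers therefore have no background to be read against. From section 1 to section 5 the level in L. attenuatus rose relative to the other species at 494 of the 936 genes and fell at 442, with a median absolute log2 difference of 2.18.

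Of the genes higher than both species in the summed counts, 973 were tested for their profile and 31 (3.19%) were called, or 103 (10.6%) with the fish as a block. Of the lower genes, 870 were tested and 10 (1.15%) were called, or 34 (3.91%) with the block. With the block the lower genes were thus called about as often as all genes (4.17%), and the higher genes more often, in a comparison of counts without a test. These shares are not fully comparable, because the lists hold more genes with few counts on 1 side. In the sums, 167 of the 920 lower genes did not exceed 3 counts in either L. attenuatus fish, against 738 of all 24792 genes. For the 4 other fish this held at 94 of the 1057 higher genes, against 100 of all genes. ID 100706417, absent from sections 1 and 2, was called in neither fit. The number of profile calls changed strongly when single fish were left out of the fit without the block, the only one repeated in this way. Without the block it fell to 7 and 9 without L. attenuatus fish 6 and 7 and to 41 and 56 without H. burtoni fish 1 and 2, was 154 without E. cyanostictus fish 4, and rose to 693 without E. cyanostictus fish 3.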

How the data were processed

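The authors deposited 1 table of raw counts per gene ID for the 30 libraries. Trimmomatic, STAR and HTSeq are named without versions per the submitters' processing notes, and the genome build, annotation and strand setting are not given in the sources used here. Of 5 htseq-count special rows, 2 were above 0, and all were left out. The 38425 IDs had 0 matches among 28690 H. burtoni genes of assembly NCSU_Asbu1, so 18 gene lists (222 symbols) were not run, and paralogous, overlapping and antisense genes cannot be told apart. The species and section of a column came from its name. The fish numbers are those of the table, which differ from the labels' 1 and 2 in E. cyanostictus and L. attenuatus.

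Counts summed per fish were filtered with filterByExpr (24792 of 38425 genes kept), scaled by TMM and tested in 1 fit of 6 fish with edgeR 4.0.16 in R 4.3.3. CPM are the deposited counts scaled to the TMM-adjusted library size. Alternatives used DESeq2 1.42.0 and limma 3.58.1. Scripts were tested on simulated data. Libraries of a group differed by more than sampling noise (chi-square per degree of freedom 16.3 to 183). Sections of 1 number come from 1 fish, and differences between the fish correlated across sections (Pearson's r over genes 0.318 to 0.659 in L. attenuatus), so the numbers pair the sections. Named IDs follow the rule given in the text. The comparison and lists were chosen with earlier results of these data known. Depth limits each value through counting error, and intervals cover that only.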

Additional observations from a re-analysis of the deposited data

Results flagged for a closer look

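The section profile of L. attenuatus differed from the mean profile of H. burtoni and E. cyanostictus at 154 genes by a direct test of the difference (edgeR, adjusted p under 0.05), and at 936 with the fish as a block. Only the fit with the block takes account of sections that come from the same fish. Groups of 2 fish are too small for a test of single outlying values, so none was made.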

How the results depend on the processing

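In the contrast with the mean, the 4 named gene IDs kept their direction and their call in each of 16 alternatives. Against both species 3 of them did so in 16 alternatives, and ID 100706417 in 13. These IDs were chosen for the largest differences and are at or near 0 on 1 side. Their direction could hardly change, so this is no further support for them. The number of genes different from both species, 1977, moved to 3096 with DESeq2, 1093 when genes averaging under 100 counts per fish were dropped, 267 at an adjusted p under 0.01 and 1034 when tested against a fold of 1.5. The number that passed the contrast with the mean, 5107, moved to 3027 with the same filter on counts, 1109 at an adjusted p under 0.01, 2566 against a fold of 1.5 and 919 with the 4 other fish as 1 group, where the difference between H. burtoni and E. cyanostictus counts as spread. Leaving out 1 fish at a time gave 236 to 2282 genes for both species, 682 to 6496 for the mean, and 7 to 693 for the section profile. In these fits the single fish left in a species is assumed to vary like the others. The section profile, at 154 genes, moved to 936 with the fish as a replicate block and to 764 with the DESeq2 likelihood ratio test. Size factors by the median ratio, no filter on low counts, sums without section 1 and, added after the data were seen, sums without section 4 kept both whole-intestine counts within 1.5 times, as did limma with equal weight of sections. Fitting each pair of species alone gave 1473 genes for both. No paired analysis was possible for the summed fish because fish of different species share no animal. With 2 fish per species, small differences could not be shown, and a gene without a call is not shown to be equal.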

Other observations

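The most abundant of the genes lower in L. attenuatus than in both species had 434.3 and 407.9 CPM in the L. attenuatus fish, against 1580 and 1421 CPM in the H. burtoni fish and 1504 and 938.8 CPM in the E. cyanostictus fish. In L. attenuatus it was lowest in sections 1 and 2, between 182.9 and 273.1 CPM, and highest in sections 4 and 5, between 545.8 and 787.2 CPM. Section 1 was also the lowest in H. burtoni fish 1 (997.4 CPM) and fish 2 (1006 CPM) and in E. cyanostictus fish 3 (918.6 CPM). For E. cyanostictus fish 4 the lowest was section 5. In section 5 the H. burtoni fish had 1775 and 1575 CPM, and E. cyanostictus fish 3 had 1448 CPM. E. cyanostictus fish 4 had 796.9 CPM there, close to the 787.2 CPM of L. attenuatus fish 6.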
